A study of Arabidopsis thaliana with 4 samples.

Results

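Long-range contact hubs were followed in chromatin contact maps of Arabidopsis thaliana endosperm and leaf. The hubs are 5 bins of 100 kb at 4 loci, of 1168 bins used in all. They were chosen on their contact values in these same maps, as bins in the gene-rich chromosome arms that meet each other over long distances, so their contacts are described here and not tested. The locus 3-north is the bin from 1900001 to 2000000 on chromosome 3, and 3-south is the bin from 22500001 to 22600000 on chromosome 3. The locus 4-south is the bin from 15500001 to 15600000 on chromosome 4. The locus 5-north is a pair of adjacent bins on chromosome 5, 5-north a from 4700001 to 4800000 and 5-north b from 4800001 to 4900000 (all TAIR10).

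Maps came from endosperm, the nutritive seed tissue that surrounds the embryo, and from leaves of plants aged 4 weeks, with 2 samples each. Both tissues were of the accession Col-0 with the genotype Col_wt x Col_wt, taken from plants grown under long days, and no age is given for the endosperm. Hi-C joins DNA ends that lie close together in fixed nuclei, so the number of joined reads between 2 bins measures how often they are near each other. The replicates of each tissue were pooled into 1 map before deposit, so each value below is a single measurement whose 95% interval covers counting error only.

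In Arabidopsis nuclei, several heterochromatin-like islands in the chromosome arms contact one another across chromosomes, in a structure called the KNOT. The islands are known as KNOT ENGAGED ELEMENTS, and they are enriched in transposons although the surrounding arms are rich in genes. Whether the 5 bins carry heterochromatin marks was not measured in these maps, and the bins were not matched to published element positions here.

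The depth was 25033672 contacts in endosperm and 18557893 in leaf, which gave a median of 21 and 16 contacts per pair of bins on different chromosomes. Chromosomes 1 and 2 stood apart in leaf, with a mean mutual contact of 0.995 in endosperm and 1.08 in leaf of the interchromosomal mean, where the other 9 chromosome pairs lay between 0.991 and 1.01 in endosperm and between 0.975 and 0.999 in leaf. Leaving this chromosome pair out of the expectation gave hub contacts of 1.68 in endosperm and 2.69 in leaf, against 1.68 and 2.66 with it. No hub bin lies on either chromosome.

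All contacts between chromosomes are given as a ratio to the mean of all interchromosomal pairs in the same tissue. The 8 interchromosomal hub pairs averaged 1.68 (95% interval 1.47 to 1.88) in endosperm and 2.66 (2.37 to 2.95) in leaf. Endosperm contact was therefore lower, with a log2 ratio of -0.67 (-0.90 to -0.43). The single pair on one chromosome, 3-north with 3-south at 20.6 Mb, was set against the mean of chromosome 3 at that distance. It had a ratio of 1.86 (1.35 to 2.50) from 44 contacts in endosperm and 3.99 (3.20 to 4.92) from 87 contacts in leaf, a log2 ratio of -1.10 (-1.66 to -0.56). In the 200 kb maps this pair had 1.19 in endosperm and 1.99 in leaf, and the interchromosomal hub mean was 1.32 in endosperm and 1.66 in leaf.

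Of these 9 far pairs, 8 were lower in endosperm and 1 was higher, where 50.2% of all far pairs of used bins were lower in endosperm. The interval lay wholly below 0 for 5 of the 9. The median log2 ratio over all far pairs was -0.0023. These counts follow in part from how the bins were chosen and give no independent evidence of a direction.

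The pair of 3-north with 5-north a was the strongest of the leaf map's hub pairs between chromosomes. It had a ratio of 2.41 (1.73 to 3.25) from 42 contacts in endosperm and 4.29 (3.26 to 5.55) from 58 contacts in leaf, a log2 ratio of -0.84 (-1.44 to -0.24). The pair of 3-north with 4-south was the strongest in endosperm, at 2.44 (1.80 to 3.22) from 49 contacts in endosperm and 3.29 (2.47 to 4.29) from 54 contacts in leaf. Its log2 ratio of -0.43 had an interval that spans 0 (-1.02 to 0.15), so the depth does not separate the tissues for this pair.

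Contacts of 5-north b, the more southerly bin of its locus, were close to the interchromosomal mean in endosperm for 2 of its 3 far partners. With 3-north it had 1.11 (0.70 to 1.66) from 23 contacts in endosperm and 2.57 (1.86 to 3.46) from 43 contacts in leaf. With 3-south it had 0.905 (0.545 to 1.41) from 19 contacts in endosperm and 1.75 (1.17 to 2.52) from 29 contacts in leaf. Both endosperm intervals include 1 and both leaf intervals exclude it. With 4-south, 5-north b kept a ratio above 1 in each tissue, at 1.55 (1.08 to 2.16) in endosperm and 2.07 (1.45 to 2.87) in leaf.

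The other contacts of 5-north a were also lower in endosperm. With 3-south it had 1.47 (0.963 to 2.16) from 26 contacts in endosperm and 2.85 (2.02 to 3.91) from 38 contacts in leaf. With 4-south it had 1.90 (1.33 to 2.63) from 36 contacts in endosperm and 2.93 (2.10 to 3.97) from 41 contacts in leaf, and the interval of that difference spans 0 (log2 -0.62, -1.31 to 0.06). The exception among the hub pairs was 3-south with 4-south, at 1.63 (1.12 to 2.28) from 33 contacts in endosperm and 1.54 (0.998 to 2.28) from 25 contacts in leaf. The adjacent bins 5-north a and 5-north b had 0.954 (0.864 to 1.05) in endosperm and 1.31 (1.17 to 1.47) in leaf of the mean for neighbouring bins on chromosome 5.

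**Figure D1:**
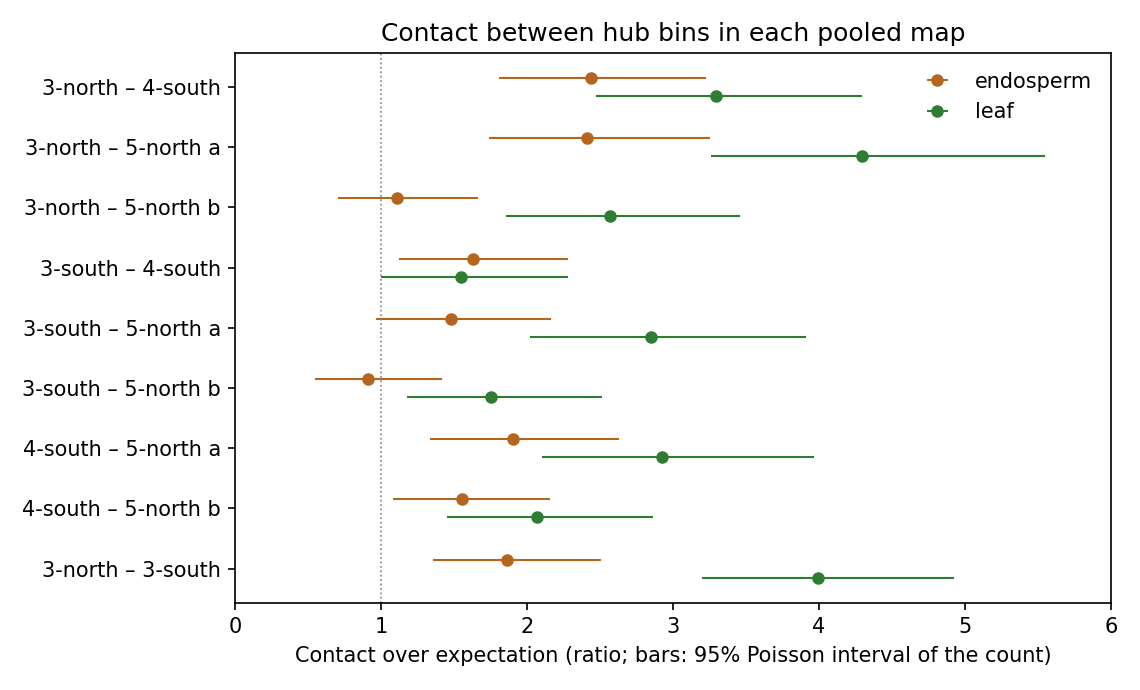
Contact over expectation (x axis, a ratio) for each far pair of hub bins (rows), with endosperm above leaf in each row and bars for the 95% Poisson interval of the count. The expectation is the interchromosomal mean, except for 3-north with 3-south, where it is the mean at that distance; endosperm lies below leaf in 8 of 9 pairs.

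By locus and over interchromosomal pairs alone, which leaves out 3-north with 3-south, the mean contact of 3-north was 1.98 in endosperm and 3.38 in leaf, and that of 5-north was 1.56 in endosperm and 2.74 in leaf. The interchromosomal contacts of 3-south averaged 1.33 in endosperm and 2.05 in leaf, and those of 4-south averaged 1.88 in endosperm and 2.46 in leaf. The log2 ratio of endosperm over leaf was -0.77 (-1.12 to -0.42) for 3-north, -0.62 (-1.05 to -0.18) for 3-south, -0.39 (-0.71 to -0.06) for 4-south and -0.82 (-1.09 to -0.54) for 5-north. Leaving out 5-north left 2 interchromosomal pairs with a log2 ratio of -0.25 (-0.70 to 0.20), an interval that spans 0. Leaving out 4-south gave -0.96 over 4 pairs.

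Far pairs at 1.5 times expectation or more made up 5.72% of all such pairs in endosperm and 4.64% in leaf, and pairs at 2 times or more made up 0.363% in endosperm and 0.337% in leaf. Of the 9 hub pairs, 6 in endosperm and 9 in leaf reached 1.5 times, and 2 in endosperm and 7 in leaf reached 2 times. Because the bins were chosen for these contacts, the shares are given only for scale.

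Control bins were the bins 10 away on either side of each hub bin on the same chromosome. There were 9, since 1 of the positions beside 3-south lies beyond the chromosome end. The 26 pairs of control with control averaged 1.05 (0.97 to 1.13) in endosperm and 1.16 (1.06 to 1.25) in leaf. The 29 pairs of hub with control averaged 1.09 (1.01 to 1.17) in endosperm and 1.19 (1.09 to 1.29) in leaf. Hub pairs stood 0.67 (0.46 to 0.88) log2 units above control pairs in endosperm and 1.20 (1.00 to 1.40) in leaf. The endosperm value was lower than that of leaf by a log2 difference of -0.53 (-0.82 to -0.25). The hub bins were chosen for these contacts and the controls by position alone. Standing above the controls therefore follows in part from the choice. Neither this nor the tissue difference is a test, and the intervals do not cover the choice.

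**Figure D2:**
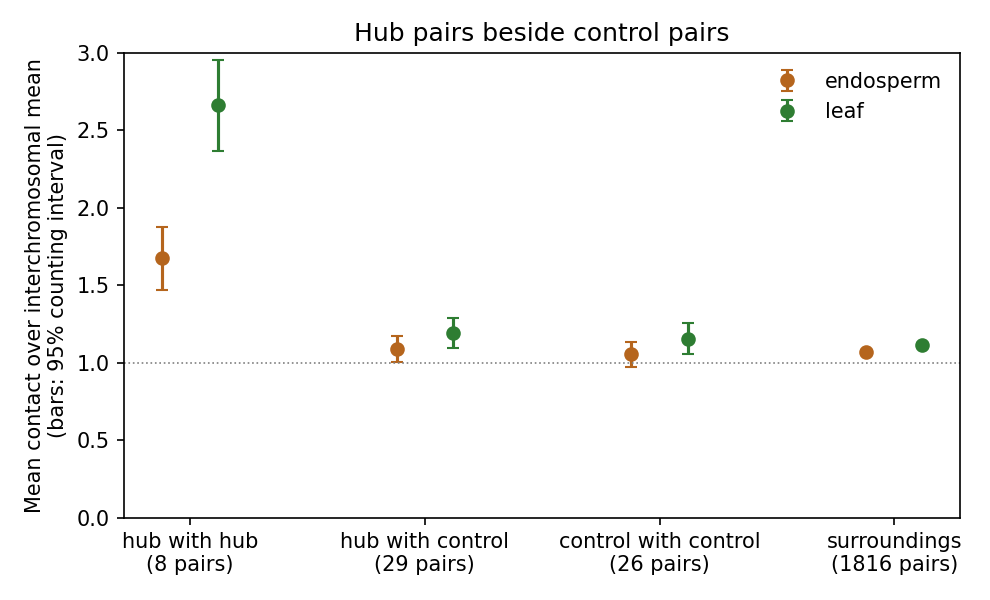
Mean contact over the interchromosomal mean (y axis, a ratio) for hub pairs, hub with control pairs, control pairs and the surroundings 4 to 10 bins away, with endosperm left of leaf and bars for 95% counting intervals. Hub pairs stand at 1.68 in endosperm and 2.66 in leaf, while the other sets lie between 1.05 and 1.19. The hub bins were chosen for these contacts.

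Each hub pair was next set against the pairs 4 to 10 bins around it on the same pair of chromosomes. The hub bins were chosen for these contacts, so standing above the surroundings follows in part from the choice and is no test. These 1816 surrounding interchromosomal pairs averaged 1.07 in endosperm and 1.12 in leaf. The pairs 3-north with 4-south and 3-north with 5-north a were above every one of their 364 and 350 surrounding pairs, in endosperm and in leaf alike. The pair 3-north with 5-north b was reached by 161 of 350 surrounding pairs in endosperm and by 0 in leaf. The pair 3-south with 5-north b was at 0.861 of the mean of its surroundings in endosperm, where 220 of 331 reached it, and at 1.61 in leaf, where 7 did. The pair 3-south with 5-north a was reached by 36 of 331 in endosperm and by 0 in leaf. The pair 3-south with 4-south was reached by 17 of 344 in endosperm and by 22 in leaf, and was the least distinct of the hub pairs in leaf by this count.

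The mean contact over all interchromosomal hub pairs was highest at the hub bins themselves, which follows in part from how they were chosen. When 1 bin of a pair was moved, the mean was 1.30 at 1 bin, 1.17 at 2 bins and 1.15 at 3 bins in endosperm, against 1.68 at the hub itself. In leaf it was 1.56 at 1 bin, 1.29 at 2 bins and 1.24 at 3 bins, against 2.66 at the hub. Relative to the surroundings, the bins 1 away held 37.9% of the central excess in endosperm and 28.7% in leaf, and those 3 away held 13.1% in endosperm and 8.22% in leaf. The centre was chosen for its height, so these shares describe the fall and do not test it. The decrease was not even, since endosperm had 1.17 again at 6 bins and leaf had 1.27 at 9 bins. Single loci were less even. The bin 3 away on the northern side of 3-north averaged 1.61 (1.30 to 1.91) in endosperm and 1.28 (0.96 to 1.59) in leaf. That 3 away on the northern side of 3-south averaged 0.99 (0.75 to 1.22) in endosperm and 1.62 (1.27 to 1.98) in leaf. Bins of 100 kb cannot resolve whether a hub fills its bin or a part of it.

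Over interchromosomal pairs, the bins beside 3-north had the highest means of any bin 1 away. The bin on its northern side averaged 1.46 in endosperm and 1.82 in leaf, and that on its southern side averaged 1.48 in endosperm and 1.90 in leaf. Beside 3-south the means were 1.38 (1.10 to 1.66) on the northern side and 1.11 (0.85 to 1.37) on the southern side in endosperm, against 1.17 (0.87 to 1.47) and 1.72 (1.35 to 2.09) in leaf. The intervals of the tissues overlap widely on the northern side, and only between 1.35 and 1.37 on the southern side. Overlap alone does not show that the tissues are alike, and no interval of the difference is given here. In endosperm 3-south itself, at 1.33 (1.04 to 1.63), was no higher than the bin on its northern side or than the bin 2 away to the south, at 1.36 (1.06 to 1.66). Beside 5-north the mean at 1 bin was 1.07 and 1.19 in endosperm, north and south, against 1.42 and 1.31 in leaf.

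**Figure D3:**
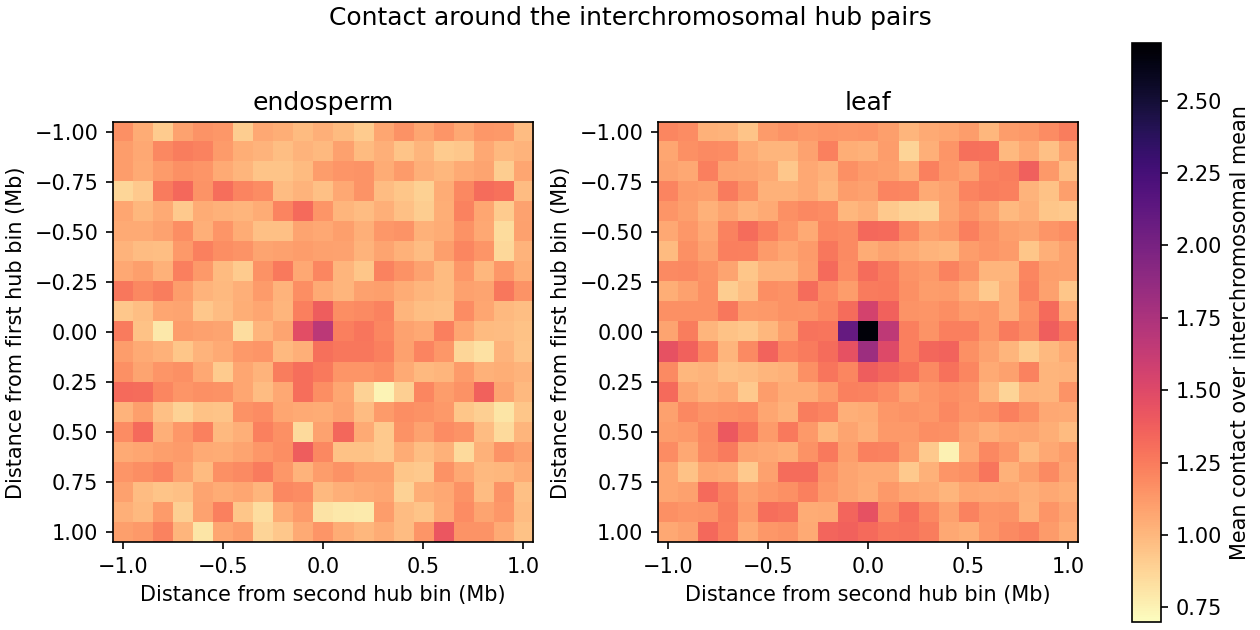
Average contact (colour, ratio to the interchromosomal mean) over the 8 interchromosomal hub pairs, with the distance from each hub bin on the axes in Mb, endosperm left and leaf right on one colour scale. The central cell is 1.68 in endosperm and 2.66 in leaf, the highest cell of each map, and the hub bins were chosen for these contacts. In endosperm a cell away from the centre, 1 Mb by 0.6 Mb off and with 5 pairs, reaches 1.41.

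**Figure D4:**
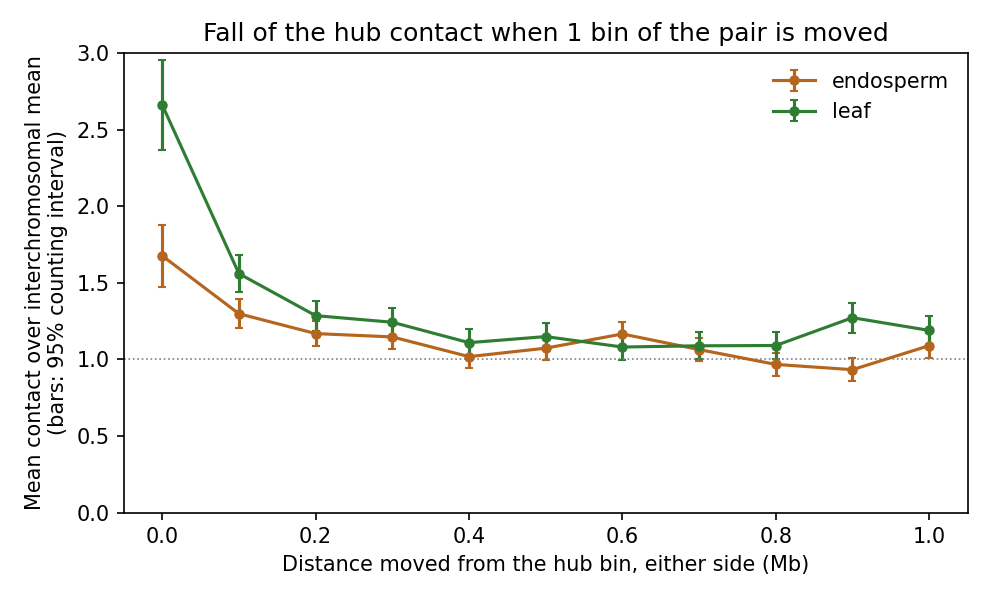
Mean contact over the interchromosomal mean (y axis) when 1 bin of a hub pair is moved by 0 to 1 Mb (x axis), for endosperm and leaf, with 95% counting intervals. At 0.1 Mb the mean is 1.30 in endosperm and 1.56 in leaf, and from 0.4 Mb on all points lie between 0.93 and 1.27. The points at 0 Mb are of bins chosen for these contacts.

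The strongest partners over 5 Mb away or on another chromosome were then listed, 5 for each hub bin. Of the 25 places, other hub bins filled 4 in endosperm and 12 in leaf. Adding bins up to 3 away from a hub bin gave 5 in endosperm and 15 in leaf. The hub bins were chosen for contact with each other, so these counts follow in part from the choice. Arm bins filled 22 of the 25 in endosperm and 23 in leaf. The listed ratios ran from 1.94 to 3.06 in endosperm and from 2.20 to 4.78 in leaf. Pairs listed in endosperm had a median of 1.11 in leaf, and pairs listed in leaf had a median of 1.77 in endosperm. A lower value in the tissue not used for the listing follows in part from the picking.

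Several strong partners were not hub bins. The strongest of all in leaf was the bin at 16.7 to 16.8 Mb of chromosome 3 with 3-south, 5.8 Mb away, at 2.55 (2.05 to 3.14) from 89 contacts in endosperm and 4.78 (3.96 to 5.73) from 118 contacts in leaf. It headed the list of 3-south in each tissue. The bin before it, at 16.6 Mb, had 1.68 with 3-south in endosperm and 3.44 in leaf. The bin at 11.2 to 11.3 Mb of chromosome 4 had 1.26 (0.84 to 1.80) with 3-south in endosperm and 3.16 (2.38 to 4.11) in leaf, and these intervals do not overlap. This pair was listed in leaf alone, so a lower value in endosperm follows in part from the picking.

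The bin at 3.1 to 3.2 Mb of chromosome 3 met all 4 loci in leaf. With 4-south it had 1.93 (1.40 to 2.59) in endosperm and 2.84 (2.10 to 3.77) in leaf. With 5-north a it had 2.02 (1.44 to 2.75) in endosperm and 2.88 (2.06 to 3.92) in leaf, and with 3-south it had 1.33 (0.93 to 1.84) in endosperm and 2.53 (1.89 to 3.31) in leaf. It lies 1.2 Mb from 3-north, too near to count as far. Against the mean at that distance it still had 4.14 (3.67 to 4.65) with 3-north from 287 contacts in endosperm and 5.62 (4.96 to 6.34) from 263 contacts in leaf.

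The bin at 10.3 to 10.4 Mb of chromosome 5, in the pericentromere, was the strongest partner of 5-north a in endosperm and of 5-north b in leaf. With 5-north a it had 3.06 (2.33 to 3.95) from 59 contacts in endosperm and 2.41 (1.66 to 3.38) from 33 contacts in leaf. With 5-north b it had 1.43 (0.98 to 2.01) from 33 contacts in endosperm and 3.52 (2.68 to 4.53) from 60 contacts in leaf. The tissue intervals overlap for 5-north a, which alone does not show that the tissues are alike, and do not overlap for 5-north b. The pair with 5-north b was listed in leaf alone, so its lower value in endosperm follows in part from the picking. The bin at 11.1 to 11.2 Mb of chromosome 4, 4.4 Mb from 4-south, had 3.27 with it in endosperm and 3.44 in leaf, both against the mean at that distance.

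Some endosperm partners were at or below the mean in leaf. The bin at 1.4 to 1.5 Mb of chromosome 5 had 2.29 (1.71 to 2.99) with 3-north in endosperm and 0.723 (0.385 to 1.24) in leaf. With 4-south it had 1.95 (1.44 to 2.58) in endosperm and 0.804 (0.450 to 1.33) in leaf. The bin at 29.1 to 29.2 Mb of chromosome 1 had 2.12 (1.56 to 2.82) with 3-north in endosperm and 0.481 (0.208 to 0.948) in leaf. These bins were picked as the highest of all far bins in endosperm, so a lower value in leaf follows in part from the picking.

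The number of partners of the hub bins was then counted. Partners at 1.5 times or more numbered 361 over the 5 hub bins in endosperm and 294 in leaf. Per hub bin they ranged from 63 to 81 in endosperm and from 41 to 69 in leaf, where the median arm bin had 59 in endosperm and 50 in leaf. In leaf, 3-north with 41 and 5-north a with 48 lay below the arm median. Of the 916 arm bins, 45 to 316 in endosperm and 131 to 661 in leaf had more than a given hub bin. These partners were 5.79% to 7.31% of far bins in endosperm and 3.73% to 6.36% in leaf. Over all far pairs of used bins the shares were 5.72% in endosperm and 4.64% in leaf. At 2 times or more the shares were 0.374% to 0.820% in endosperm and 0.546% to 0.812% in leaf, against 0.363% and 0.337% of all far pairs. In numbers the hub bins had 4 to 9 such partners in endosperm and 6 to 9 in leaf, against a median of 3 for arm bins in endosperm and 1 in leaf. All 5 hub bins were above that median in each tissue, and from 9 to 220 of the 916 arm bins in endosperm and from 75 to 107 in leaf had more partners than a given hub bin. Other hub bins are among the partners counted. The hub bins were chosen for these contacts, so counts above the arm median follow in part from the choice. With endosperm thinned to the depth of leaf, 460 partners passed 1.5 times in endosperm, against 294 in leaf. The counts therefore depend on depth, and those at full depth do not compare the tissues. The share of all far pairs that passed after thinning is not given here, so the thinned count has no background beside it. Without balancing the counts were 143 in endosperm and 125 in leaf.

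For every used bin, the contact with those hub loci that were far from it was averaged. The 5 hub bins were among those ranked, each by its contact with the loci other than its own. They were chosen on these same contacts, so their high ranks follow in part from the choice and are given for scale. Among 1168 bins, 3-north ranked 2 in endosperm and 1 in leaf, 4-south ranked 3 in endosperm and 5 in leaf, and 5-north a ranked 4 in endosperm and 2 in leaf. The bin 3-south ranked 10 in endosperm and 4 in leaf. The bin 5-north b ranked 148 in endosperm and 7 in leaf.

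Outside the hub bins and the 3 bins on each side, 1139 bins remained, with a median of 0.993 in endosperm and 0.987 in leaf. The bin at 3.1 Mb of chromosome 3 ranked 3 in endosperm, at 1.71, and headed the list in leaf, at 2.64. The bin at 16.7 Mb of chromosome 3 had 1.65 in endosperm and 2.25 in leaf. The bin at 1.4 Mb of chromosome 5 headed the endosperm list with 2.02 and ranked 784 in leaf with 0.922. The best bin of chromosome 1 in leaf, at 7.0 to 7.1 Mb, had 1.43 in endosperm and 1.40 in leaf and ranked 3 on that chromosome in endosperm.

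The 10 highest bins of each tissue shared 4 bins. The 10 chosen in leaf had a median of 1.38 in endosperm, against 1.74 in leaf itself. The endosperm map was not used to pick these 10. It is still not independent, since the hub bins were chosen on both maps. All 10 were above the endosperm median of all bins and 6 were above its 95th percentile of 1.27. Some of these 10 are adjacent bins, so the counts do not stand for separate loci. The 10 chosen in endosperm had a median of 1.65 in endosperm and 1.18 in leaf, with 7 above the leaf median and 5 above its 95th percentile of 1.25. Bins with 3 or more hub loci at 1.5 times or more were 2 of 1139 in endosperm (0.176%) and 2 of 1139 in leaf (0.176%). In endosperm these were the bins at 1.4 and 10.3 Mb of chromosome 5, and in leaf those at 3.1 and 16.6 Mb of chromosome 3.

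**Figure D5:**
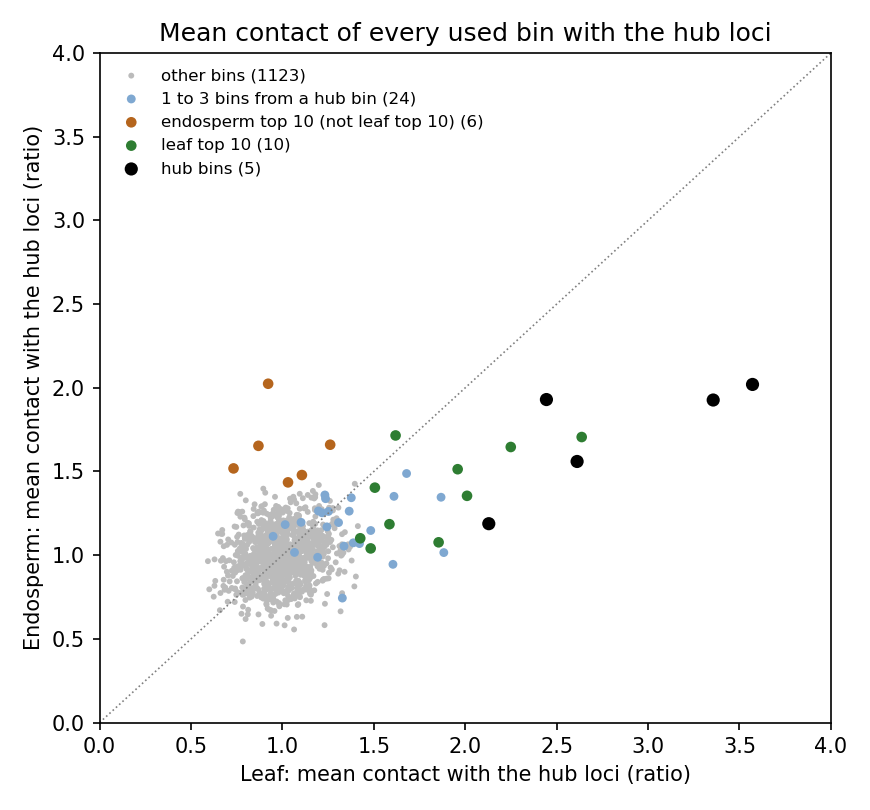
Mean contact of each used bin with the far hub loci, endosperm on the y axis and leaf on the x axis (ratios), with hub bins in black and the 10 highest other bins of each tissue in colour. All 5 hub bins lie below the dotted line of equal values, with endosperm at 1.19 to 2.02 and leaf at 2.13 to 3.57.

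All 5 hub bins and all 9 controls lie in the arms, the hub bins between 0.86 and 4.8 Mb from a chromosome end and the controls between 0.9 and 5.8 Mb. Genes of assembly TAIR10.1 covered 64.7% to 76.0% of each hub bin, where the median arm bin had 64.8% and the controls ran from 55.3% to 83.5%. The hub bins held 29 to 38 annotated genes each, against 28 to 41 in the controls and a median of 33 over arm bins. In gene cover and gene number the hub bins lay within the range of the controls. Protein-coding genes were fewer in 3 of the 5, with 24 in 3-north, 18 in 3-south and 24 in 5-north a, against 26 to 35 in the controls and a median of 27 over arm bins. The bins 4-south and 5-north b held 29 and 32.

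Annotated pseudogenes were more numerous in most hub bins than in the controls. The bin 3-south held 6, 4-south held 4, 5-north a held 3, 3-north held 2 and 5-north b held 0, while each control held 0 or 1. At least 3 pseudogenes were found in 3 of 5 hub bins, in 0 of 9 controls and in 21.7% of all arm bins. At least 2 were found in 4 of 5 hub bins, in 0 of 9 controls and in 37.3% of all arm bins. The number of hub bins is too small to set the pseudogene counts apart from other arm bins.

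Mapped depth was close to the usual level in 4 of the 5 hub bins. The contact count of a bin over the median bin was 0.847 in endosperm and 0.809 in leaf for 5-north a, and between 0.910 and 1.03 in endosperm and between 0.954 and 1.02 in leaf for the other four. The controls ran from 0.938 to 1.17 in endosperm and from 0.959 to 1.15 in leaf. The share of a bin's signal that went to other chromosomes was 63.1% to 70.7% in endosperm and 66.6% to 75.4% in leaf for the hub bins, against 63.9% to 70.5% in endosperm and 66.9% to 75.5% in leaf for the controls. The ranges of share in hub bins and controls overlapped almost wholly.

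The genes of the hub bins are named for position only, since no expression was measured. The bin 3-north holds 10 genes with a symbol, among them SAC3B, NHX4, which encodes a vacuolar cation/proton antiporter, and AGP27, an arabinogalactan protein gene. The bin 3-south holds FLA10, a fasciclin-like arabinogalactan gene, ABCC15 of the ABC transporters, the cytochrome P450 gene CYP76C7, the pseudogene CYP76C8P of the same family and the microRNA gene MIR1888b. The bin 4-south holds VAMP711, a vacuolar SNARE, PANK2, a pantothenate kinase, SDH3-2, a subunit of succinate dehydrogenase, and ASY2, a relative of the meiotic axis gene ASY1.

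The bin 5-north a holds DRM2, the de novo DNA methyltransferase of RNA-directed DNA methylation, and MYB66 (WEREWOLF), which sets the fate of root epidermal cells. It also holds CA2, a carbonic anhydrase gene, and PDF1B, a peptide deformylase gene. The bin 5-north b holds SNL2, a SIN3-like co-repressor gene, DEL2, an atypical E2F gene, SAG101, a partner of EDS1 in immunity, CNGC18, a cation channel gene of pollen tubes, and VDAC3, a mitochondrial porin gene. At 100 kb, contacts of a bin cannot be assigned to any of these genes.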

How the data were processed

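In situ Hi-C libraries of endosperm and leaf were mapped to TAIR10, and per the submitters' processing notes the tools were Bowtie2 and HiC-Pro 2.9.0. The authors deposited a balanced contact signal per pair of bins, as 4 maps (100 and 200 kb, 1 pooled map per tissue at each size). For the enzyme, filters and balancing, details were not given in the sources used here. Balancing makes all bins equal in total signal, so it hides copy-number differences.

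Whole contact counts were recovered from the deposited signal, as the signal times 1 factor per bin. All pairs (100%) came out whole within 0.01. Bins with values for under 50% of the others were left out, which kept 1168 of 1193. For pairs on 1 chromosome the expectation was that chromosome's mean at the pair's distance plus and minus 3 bins, or at exactly that distance within 10 bins. Intervals at 95% are exact Poisson for a pair, exact conditional binomial for a single pair's log2 ratio of tissues, and 1.96 standard errors for means. For log2 ratios of means, and for differences of these, a normal approximation from the same standard errors was used. The calculation was tested on simulated data, with Python 3.11.15, numpy 2.4.6, scipy 1.17.1 and pandas 2.3.3.

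With 1 map per tissue no test across replicates was possible. Members, gene lists and named regions were chosen with earlier results of these data known. Regions named are the hub bins, their controls, the 5 strongest far partners per hub bin and tissue (from pairs with at least 10 contacts) and the 10 bins with the highest mean ratio to the hub loci. Genes named come from the first 6 with a symbol per hub bin. Gene names, and the assignment of genes to bins, came from a gene table of TAIR10.1. Alternatives changed the expectation, the balancing, the bin size, the window, the loci, the controls and the thresholds.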

Additional observations from a re-analysis of the deposited data

How the results depend on the processing

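The lower hub contact in endosperm kept its direction under all 12 alternatives run, with log2 ratios from -0.96 to -0.25. The value of -0.25 rests on 2 pairs, with an interval of -0.70 to 0.20. Hub pairs stayed above control pairs in each tissue, by 0.31 to 1.07 in endosperm and 0.60 to 1.43 in leaf. All alternatives used the same chosen hub loci and the same pooled samples, so unchanged directions are no independent evidence. Sizes moved more. Values are given as endosperm, then leaf, then log2 endosperm over leaf where it moved. At 200 kb, hub contact was 1.32 and 1.66 (log2 -0.33), hub over control 0.33 and 0.60 in log2, and 3-north with 3-south 1.19 and 1.99. With 3 by 3 bins around each pair, contact was 1.31 and 1.71 (log2 -0.39) and hub over control 0.31 and 0.63. With counts left unbalanced, contact was 1.22 and 1.99, hub over control 0.38 and 0.94, hub over surroundings 0.36 and 1.02, and partners 143 and 125. Unbalanced counts divided by both bins' count totals, an alternative chosen after seeing the data, gave 1.73 and 2.84. Without 3-north, leaf contact was 2.23 and leaf hub over control 0.91. Without 3-south, contact was 1.88 and 3.03. Without 4-south, hub over control was 0.40 and 1.43 (log2 -0.96). Without 5-north, endosperm contact was 2.03, hub over control 1.07 and 0.94, and the log2 ratio -0.25. At 2 times the expectation there were 31 and 37 partners, and 0 and 1 bins shared by 3 or more loci. The causes were not tested. Wider windows and 200 kb bins average the hub bin with its neighbours by construction, but whether this accounts for their lower values was not tested.

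No paired analysis was possible because the replicates of each tissue were pooled into 1 map, and leaving out a replicate was not possible for the same reason. With medians of 21 contacts per pair in endosperm and 16 in leaf, single pairs carry wide intervals, and differences between tissues for 4 of the 9 hub pairs were not detectable at this depth. Intervals cover counting error only; spread between plants was not measurable here.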

Other observations

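The 10 bins with the highest mean contact with the hub loci in leaf were also set against each other. Their 31 pairs averaged 0.983 (0.906 to 1.06) in endosperm and 1.12 (1.02 to 1.21) in leaf, where pairs of bins 10 away from them averaged 1.04 in endosperm and 0.940 (0.890 to 0.989) in leaf. The 10 bins chosen in endosperm had 39 pairs that averaged 1.03 (0.963 to 1.10) in endosperm and 1.01 in leaf, against 1.04 in endosperm and 1.01 in leaf for their control pairs. The highest leaf pair joined 10.3 Mb of chromosome 5 with 11.1 Mb of chromosome 4, at 1.61.

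The bin at 5.7 to 5.8 Mb of chromosome 5 is a control of 5-north a and also stood ninth among leaf partners of the hub loci, at 1.04 in endosperm and 1.48 in leaf.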
